A study of Caenorhabditis elegans with 12 samples.

Results

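The transcriptome of BAG neurons was described in the *npr-1* controls alone, as the set of genes whose level reached 10 TPM (reads corrected for gene length and scaled so that each library sums to the same total) or more in each of 6 libraries. The members were chosen by these measured TPM values and by nothing else, so that their levels are a description, with no test of a difference. The rule was met by 4690 of 46766 annotated genes, 10%, and by 4589 of 19701 protein-coding genes, 23.3%. The animals were *npr-1(ad609)* hermaphrodites that also carried the *flp-17p::gfp* transgene *ynIs64*, harvested as day 1 adults after growth at 20°C on *Escherichia coli* OP50. All of them lacked NPR-1 function, a neuropeptide receptor, so the set is not that of wild-type BAG neurons, and the *flp-17* promoter decided which cells were fluorescent and collected. Each replicate held about 4000 fluorescent events sorted from dissociated animals, and its RNA was amplified with Smart-seq2, a method that copies full-length mRNA from few cells and puts no tag on single molecules. A further 6 libraries came from *arcp-1(db1082); npr-1(ad609)* animals that carried the same transgene, and they were used here only to ask whether a member also reached the minimum outside the libraries that had chosen it.

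BAG neurons are a pair of ciliated neurons in the head of *C. elegans* that sense the respiratory gases. A rise in CO2 acts on the receptor guanylyl cyclase GCY-9 and a fall in O2 on the soluble guanylyl cyclases GCY-31 and GCY-33, the cGMP so formed opens channels built from TAX-2 and TAX-4, and phosphodiesterases such as PDE-1 remove it again. The cells release glutamate and neuropeptides, among them those encoded by *flp-17*, and the ETS factor ETS-5 maintains their gas-sensing genes. This background comes from earlier work and was not tested here.

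The libraries held 540884 to 7594719 reads assigned to genes, recovered from the deposited normalized counts. These are what remained after filtering and counting, fewer than the reads that were sequenced and mapped. Replicates 5 and 1 were the shallow ones, with 540884 and 952110 such reads. At these depths a gene with no read could still account for up to 3 reads, or 5.55 CPM (reads per 1000000) in replicate 5 and 0.395 CPM in replicate 6, a limit that covers counting error only, so a low value in replicates 1 and 5 says little about absence. Members numbered 722 with under 10 reads in replicate 5 and 495 in replicate 1, against 4 to 9 in each of the other libraries. Replicate 1 stood apart, with the lowest value of 2397 members, 51.1% of the set. Its log2(TPM + 1) values over the members correlated with the mean of the other libraries at r = 0.848, against 0.929 to 0.966 for the others, as a description over 4690 genes that share libraries. Results that rest on replicate 1 are given with and without it below. Since each library is a bulk sample, fewer cells of a type and less RNA per cell cannot be told apart.

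The 4 genes that mark BAG were all members, and all were lowest in replicate 1. *gcy-9*, on chromosome X, was at 112, 235, 564, 633, 838 and 626 TPM in replicates 1 to 6. *gcy-33*, on chromosome V, was likewise low in replicates 1 and 2 with 138, 247, 653, 542, 819 and 554 TPM. *flp-17*, on chromosome IV, was at 216, 573, 833, 729, 947 and 1084 TPM, and *ets-5*, on chromosome X, at 251, 648, 664, 724, 759 and 708 TPM. Replicates 1 and 2 were thus the libraries with the least of all 4 transcripts. The sum of the 4 ran from 718 TPM in replicate 1 and 1702 TPM in replicate 2 to 3363 TPM in replicate 5. Reads were counted without regard to strand, and exons of all 4 overlap those of other annotated genes (*npr-9* for *gcy-9*; *cal-5* and a pair of unnamed genes for *ets-5*; small RNA or unnamed loci for *flp-17* and *gcy-33*), so part of a value could belong to the overlapping gene.

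Markers of 17 other cell types were read in the same way. Of the neuron types that could resemble BAG, the markers of ASE, AWC, and AWA and AWB neurons held no member, as did those of AFD, cholinergic, and dopaminergic and serotonergic neurons, glia and coelomocytes. The summed level of the 6 ASE markers was 1.07 to 8.55 TPM and that of the 2 coelomocyte markers 0 to 9.76 TPM, with *unc-122* at 0 to 2.32 TPM. The glia markers summed to 16.9 to 61.8 TPM, the cholinergic ones to 18.4 to 30.1 TPM and the AFD ones to 4.93 to 32.8 TPM. Those of AWA and AWB summed to 1.82 to 37.6 TPM and those of AWC to 0.809 to 18.0 TPM. The dopaminergic and serotonergic markers summed to 0 to 7.92 TPM. Among the markers of the O2-sensing URX, AQR and PQR neurons, *gcy-37*, a soluble guanylyl cyclase, was a member at 47.2 to 114 TPM with a median of 87.2, while *gcy-35* was at 0 to 4.80 TPM, *gcy-34* at 0 to 1.33 TPM and *gcy-32* at 0 to 15.9 TPM. Of the other neuron lists, the ASH, ASI and ASK markers held *daf-7*, a TGF-beta ligand of ASI, at 13.7 to 88.8 TPM with a median of 56.4, and summed to 13.7 to 89.5 TPM. The touch neuron markers held *mec-17* and summed to 31.1 to 2550.0 TPM, and the GABA neuron markers held *unc-25* and summed to 28.9 to 307 TPM. Some transcripts of muscle and hypodermis were abundant, and each of these sums rested mostly on a single gene. The 7 body wall muscle markers summed to 2238 to 10587 TPM, of which *unc-54*, a muscle myosin heavy chain, accounted for 1858 to 10196 TPM, whereas *myo-3*, the other body wall myosin, was at 14.0 to 23.2 TPM. The median of the mean levels of these 7 markers was 86.4 TPM. The 6 hypodermis markers summed to 1516 to 3278 TPM, mostly *col-19*, an adult cuticle collagen, at 1472 to 3029 TPM with a median of 1808, while *dpy-7* and *dpy-10* did not reach the minimum. Markers of the intestine summed to 268 to 553 TPM and those of the germline to 249 to 562 TPM, with 4 of 7 and 5 of 8 as members. The part of such tissue in the level of any single member was not tested.

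**Figure D1:**
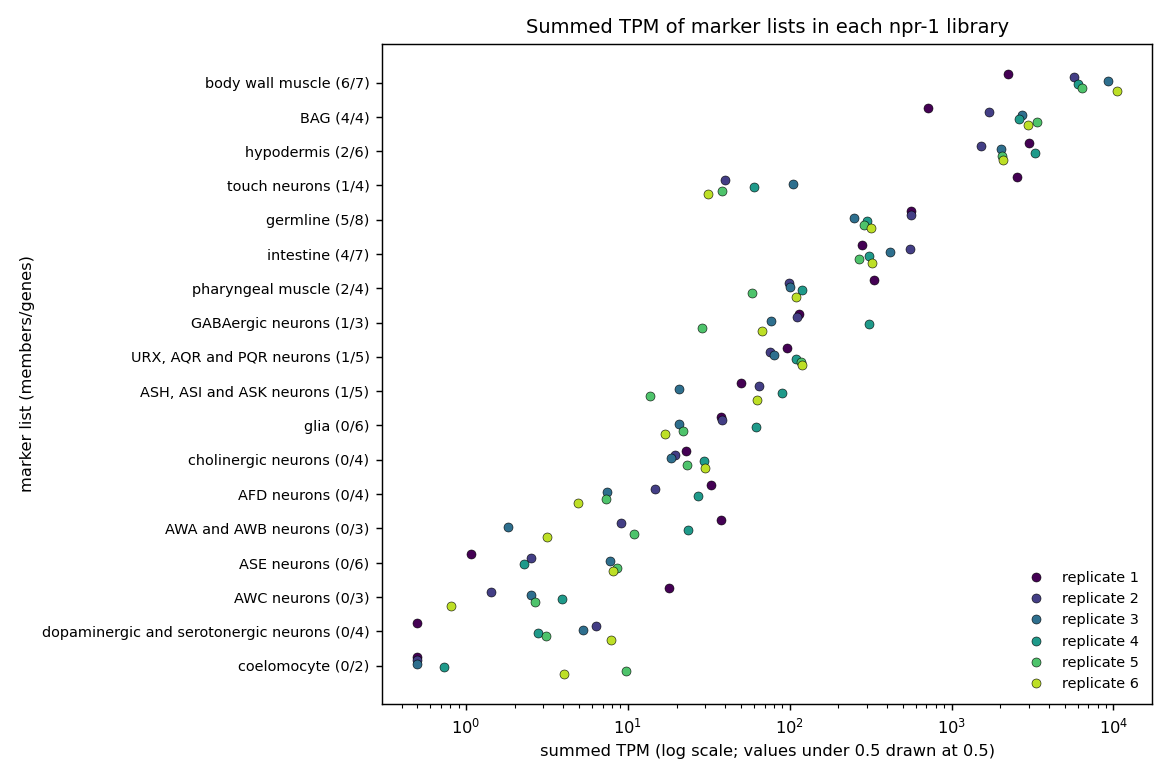
Summed TPM on a log scale for the BAG markers and 17 lists of markers of other cell types, with 1 point for each of the 6 npr-1 libraries and, in brackets, how many genes of a list were members. The BAG sum ran from 718 TPM in replicate 1 to 3363 TPM in replicate 5, and the touch neuron sum reached 2550.0 TPM in replicate 1 against 31.1 to 104 TPM in the others.

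The transcriptome was steep. The 34 members with a mean of 3000 TPM or more held 37.5 ± 2.64% of all TPM (SD, n = 6 libraries), and the 79 members between 1000 and 3000 TPM held a further 13.7 ± 1.57%. At the other end, 2269 members between 30 and 100 TPM, 48.4% of the set, held 12.3 ± 1.14%, and 1377 members between 10 and 30 TPM held 3.05 ± 0.15%. The classes from 100 to 300 and from 300 to 1000 TPM had 681 and 250 members and shares of 11.2 ± 1.37% and 13.1 ± 1.04%. Together the members held 90.9 ± 1.17% of all TPM, from 89.7% in replicate 3 to 92.9% in replicate 2. A class share varied little from library to library even where its genes did.

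**Figure D2:**
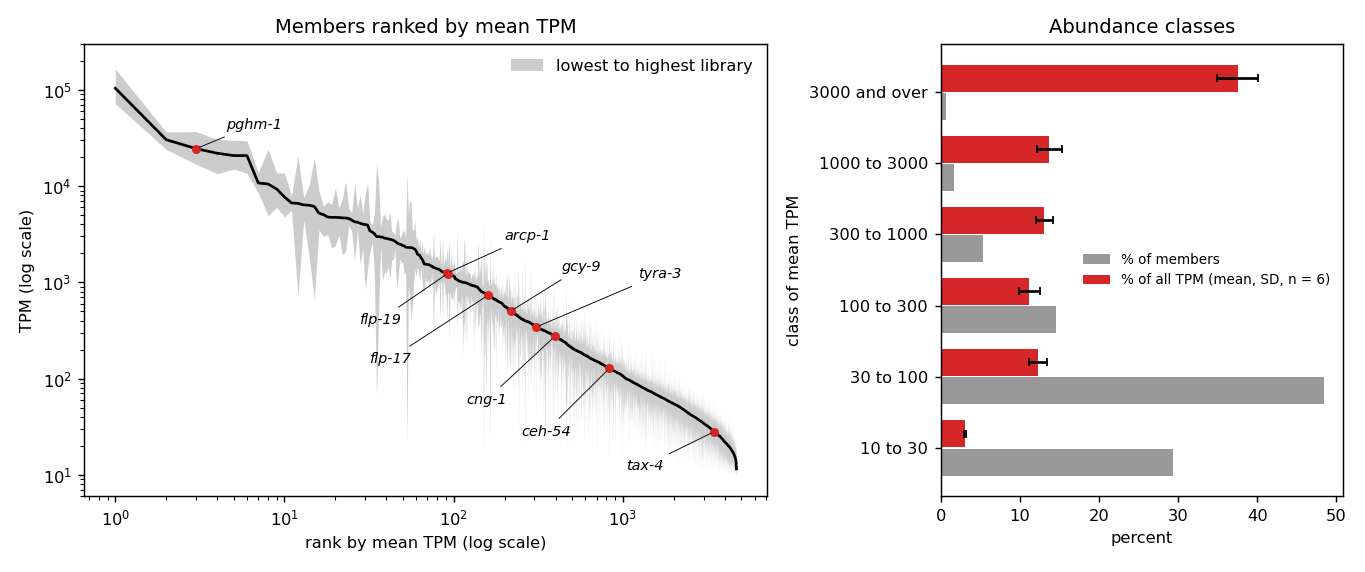
Left, mean TPM of the 4690 members against rank, both on log scales, with the lowest to highest library in grey and 9 named genes in red. Right, the share of members and the share of all TPM (mean and SD, n = 6 libraries) in each class of mean TPM, from 0.725% of members with 37.5% of TPM at 3000 TPM and over to 29.4% of members with 3.05% of TPM at 10 to 30 TPM.

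Neuropeptide processing led the protein-coding genes. The 4 most abundant were *pghm-1* at 24517 ± 7139.5 TPM, *pgal-1* at 21949.8 ± 6029.7 TPM, *sbt-1* at 20766 ± 5566 TPM and *egl-21* at 20749 ± 5843 TPM (SD, n = 6). PGHM-1 and PGAL-1 carry out the successive steps that amidate a peptide's end, SBT-1 is the 7B2 chaperone of the proprotein convertase EGL-3, and EGL-21 is the carboxypeptidase E that trims the cleaved peptides. Together they held between 5.90 and 12.7% of all TPM, with a median of 8.95%. Each ranged over about the same span, *pghm-1* from 16914 to 36859.5 TPM with a median of 24259 and *sbt-1* from 15072 to 29953 TPM with a median of 20706, and each was highest in replicate 2. *pgal-1* shares exon positions with *F21F3.6* and *sbt-1* with *grl-14*. Next among coding genes came *ant-1.1*, the mitochondrial ADP/ATP carrier, at 8491 to 13783 TPM with a median of 10519, the cuticle collagen *col-140* at 4945 to 24081 TPM with a median of 7664, and *cab-1*, a membrane protein that binds the neuronal exocytosis regulator AEX-3, at 6005 to 13684 TPM with a median of 9166. Ribosomal protein *rpl-12* (5588 to 7870.5 TPM), elongation factor *eef-1G* (4439 to 7599 TPM), the muscle myosin *unc-54*, the nucleoside diphosphate kinase *ndk-1* (3143 to 6890.3 TPM) and the collagens *col-124* (4790.5 to 13679 TPM), *col-93* (3500.4 to 8849 TPM) and *col-20* (2428 to 9481 TPM) completed the coding genes of the top 20.

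The other 6 ranks of the top 20 were held by loci that code for no protein. Ribosomal RNA that had passed the authors' removal step remained the largest single item, with *rrn-3.1* at 71966 to 165169 TPM with a median of 97422 and *rrn-2.1* at 24039 to 36571 TPM with a median of 30143, and the 5 rRNA members took 11.0 to 19.2% of a library. The noncoding RNA genes *C30E1.9* and *F46A8.13* were at 2985 to 6186 TPM and 2268 to 6424 TPM. The piRNA loci *21ur-15412* and *21ur-11286* were at 745 to 20606 TPM with a median of 3841 and at 662 to 19579 TPM with a median of 3441. Both are annotated as 21 bases long and lie on chromosome IV (positions 17193514 to 17193534 and 17192999 to 17193019, WS255) 1623 and 1108 bases upstream of *flp-17*, in the direction away from the gene, and their lowest library held 9 and 8 reads. As TPM is corrected for gene length, few reads on loci this short give a high value. The ranks of both loci rest on replicate 3, the highest library for each, since their means of 6610 and 6141 TPM fell to 3811 and 3454 TPM without it. Another piRNA locus, *21ur-6075*, lies 3183 bases upstream of *flp-17* and was at 828 to 8305 TPM with a median of 3666. The paper states a length of the *flp-17* promoter for transgenic lines without naming *ynIs64*. Whether the *flp-17p::gfp* transgene used here includes this stretch is therefore not settled, and its part in these values was not tested.

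By kind, 4589 members coded for protein and held 72.9 ± 2.99% of all TPM. The remaining 101 comprised 37 ncRNAs, 30 pseudogenes, 12 genes that the reference annotation does not hold, 6 piRNA loci, 5 lincRNAs, 5 rRNAs, 4 snoRNAs and 2 miRNAs, and no tRNA, snRNA or antisense RNA gene reached the minimum in all libraries. Protein-coding members were spread unevenly over the chromosomes, with 31.5% of the coding genes of chromosome I and 32.1% of those of chromosome III as members, 21.9% of chromosome II, 24.3% of chromosome IV, 21.5% of chromosome X and 15.0% of chromosome V. All 12 protein-coding genes of the mitochondrial genome were members. The median exon length of coding members was 1527 bases, against 1104 bases for the other coding genes. Exons of 1490 coding members, 32.5%, overlap those of another annotated gene, which matters because strand was not used in counting.

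Gene families were read against the shares of the whole genome, 10% of all annotated genes and 23.3% of the protein-coding ones, since a family at 20% holds about as many members as any set of coding genes of that size. Across 53 families and functional groups with 3489 distinct genes, 602 were members, or 17.3%. This share is lowered by the chemoreceptors, a single list of 1330 genes with 3 members. The plot of families by presence shows which families were filled and which were empty. No member was found in 4 lists, the ionotropic glutamate receptors with 0 of 12, the DEG/ENaC channels with 0 of 30, the T-box factors with 0 of 20 and the GATA factors with 0 of 11. The proteasome, the mitochondrial genome and the actins had every gene as a member.

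**Figure D3:**
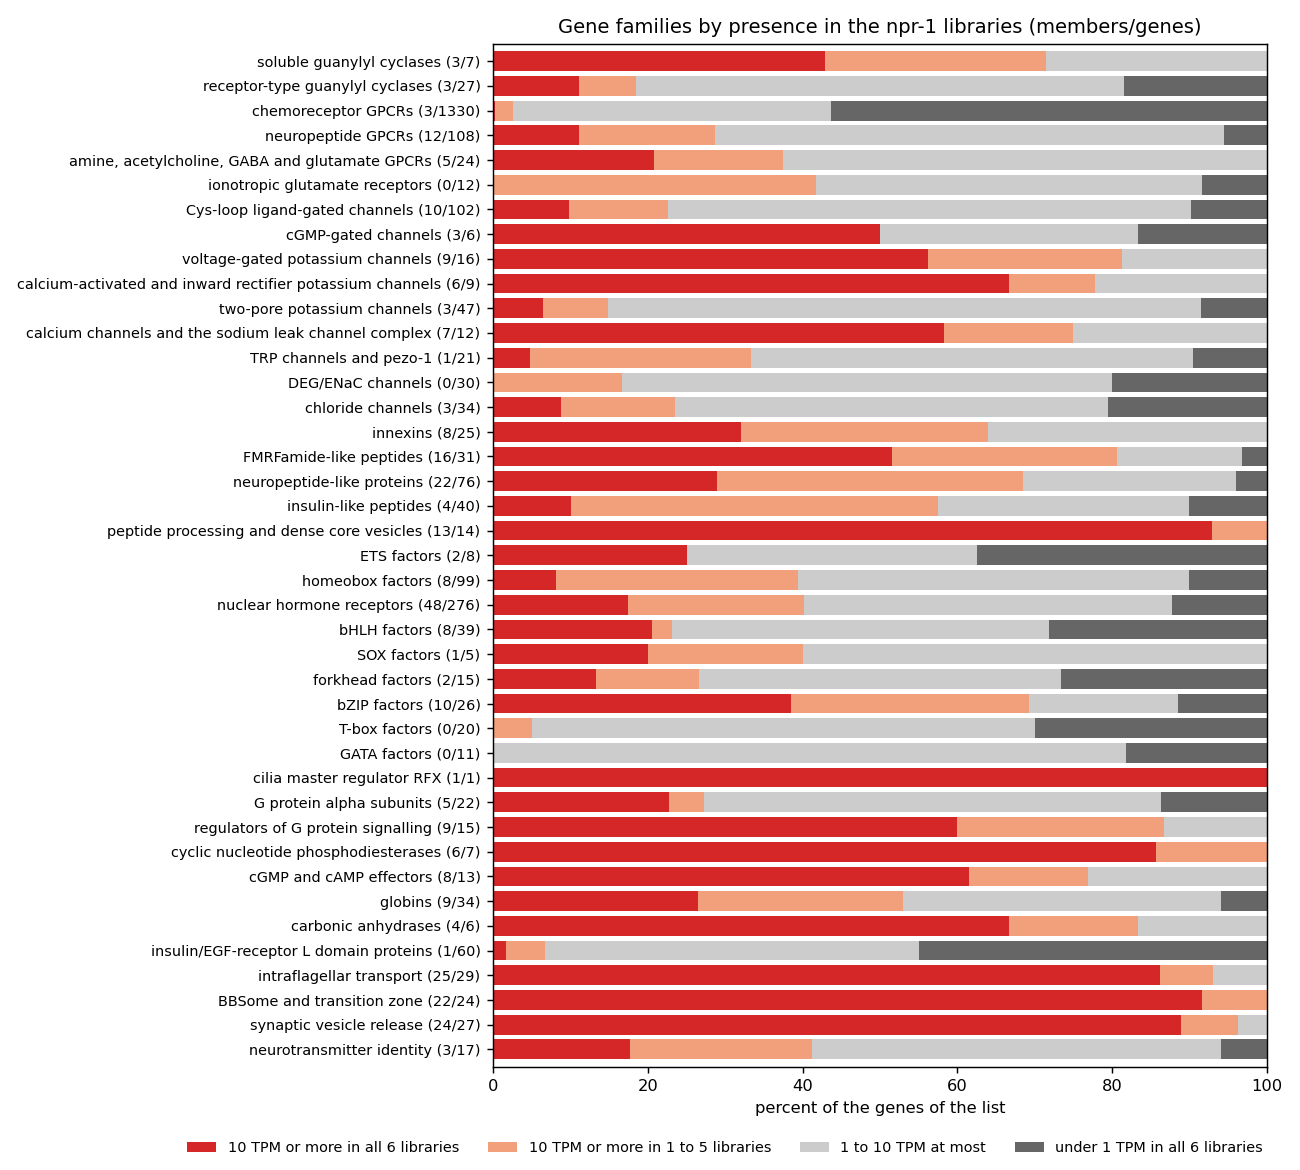
Each bar splits the genes of a family by their highest and lowest TPM in the 6 npr-1 libraries: members at 10 TPM or more in all 6 (red), 10 TPM or more in 1 to 5 libraries (orange), a highest value of 1 to 10 TPM (light grey), and under 1 TPM in all 6 (dark grey). Of 1330 chemoreceptor genes 3 were members and 750 were under 1 TPM in all libraries, while 13 of 14 genes of peptide processing and 25 of 29 of intraflagellar transport were members.

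Guanylyl cyclases, the sensory receptors of BAG, were represented by 6 of 34 genes. Among the 7 soluble cyclases the members were *gcy-33*, *gcy-31* and *gcy-37*. *gcy-31*, on chromosome X, encodes the partner of GCY-33 in the response to low O2 and was at 99.7 to 562 TPM with a median of 362, lowest in replicate 1 and highest in replicate 5 like *gcy-33*. *gcy-36*, a cyclase of the URX neurons, was at 32.0 TPM in replicate 1 and between 0 and 6.34 TPM in the other libraries. Among the 27 receptor-type cyclases, *gcy-9* was accompanied by *gcy-12*, which was at 72.4 to 134 TPM with a median of 113, and by the broadly expressed *gcy-28*, at 51.7 to 104 TPM with a median of 90.4. *gcy-9* varied more between libraries than these, with an SD of 1.11 on the log2(TPM + 1) scale against 0.32 and 0.36. The cyclases of other sensory neurons were low, with *daf-11* at 0 to 1.93 TPM and *odr-1* at 0.384 to 3.48 TPM, and *gcy-2*, *gcy-4*, *gcy-13*, *gcy-17* and *gcy-25* stayed under 1 TPM in all 6 libraries.

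Chemoreceptors were almost empty. Of 1330 annotated genes, 402 had no read in any control library, 750 were under 1 TPM throughout, and 31 reached 10 TPM in some library without being members. The members were *sri-40*, *srr-4* and *srab-14*, receptors whose ligands are not given in the sources used here. *sri-40* was at 304, 493, 124, 240.3, 49.2 and 205 TPM in replicates 1 to 6, so it was lowest in replicate 5, where *gcy-9* was highest. *srr-4* was at 33.7, 105, 85.0, 88.6, 96.5 and 91.3 TPM, a narrow band in replicates 2 to 6 with replicate 1 below it, and *srab-14*, which overlaps *spi-1*, was at 12.3 to 36.8 TPM with a median of 30.9.

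Of 108 neuropeptide GPCRs, 12 were members, in ascending order of their mean from *npr-18*, *gnrr-6* and the PDF receptor *pdfr-1* to *npr-34*, *npr-15* and *npr-26*. *npr-26* was at 32.0 to 133 TPM with a median of 90.9 and *npr-15* at 55.9 to 77.8 TPM with a median of 72.8. *npr-15* was the steadier of the pair, with an SD of 0.20 on the log2 scale against 0.69. *aex-2*, a receptor of the defecation motor programme, was at 29.9 to 81.7 TPM with a median of 63.7. *npr-1* itself, whose *ad609* allele all the animals carried, was at 0, 0, 1.25, 1.00, 0 and 0.730 TPM in replicates 1 to 6, so that no library came near the minimum.

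Receptors for classical transmitters held 5 members of 24. *tyra-3*, a tyramine and octopamine receptor, was the most abundant at 221 to 432 TPM with a median of 358. Behind it came the metabotropic glutamate receptor *mgl-3* at 25.2 to 106 TPM with a median of 94.2, the muscarinic acetylcholine receptors *gar-2* at 41.0 to 97.2 TPM with a median of 81.0 and *gar-1* at 26.1 to 60.1 TPM with a median of 47.2, and the tyramine receptor *tyra-2* at 24.6 to 51.8 TPM with a median of 40.1. All 5 were lowest in replicate 1. Ligand-gated channels of the Cys-loop family had 10 members of 102, led by *lgc-39* at 113 to 463 TPM with a median of 301, the nicotinic receptor subunit *acr-12* at 76.8 to 219 TPM with a median of 163 and *lgc-40*, which responds to serotonin and choline, at 82.9 to 172 TPM with a median of 147. Each of the 3 was lowest in replicate 1 and highest in replicate 5. The ionotropic glutamate receptor genes came closest to the minimum with *glr-4* at 6.96 to 11.8 TPM.

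The cGMP-gated channels, which carry the sensory current, had 3 members of 6. *tax-4* and *tax-2*, the alpha and beta subunits of the channel, were among the lower members at 18.3 to 41.1 TPM with a median of 28.0 and at 17.4 to 39.1 TPM with a median of 24.99. *cng-1*, a related subunit gene, stood higher in each of the 6 libraries, at 65.2, 219.9, 291, 343, 416 and 311 TPM in replicates 1 to 6, and it overlaps *F14H8.8*. All 3 were lowest in replicate 1 and highest in replicate 5.

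Potassium channels had 18 members of 72, 25%, close to the 23.3% of all protein-coding genes, and these fell unevenly over the types, with 9 of 16 voltage-gated genes and 6 of 9 calcium-activated or inward rectifier genes and 3 of 47 two-pore genes. *exp-2*, a Kv channel known for pharyngeal muscle, was at 295 to 747 TPM with a median of 511, and *kvs-2* at 189 to 536 TPM with a median of 409. Exons of *exp-2* overlap *F12F3.5* and *F12F3.7*, and those of *kvs-2* overlap *C32C4.3*. The EAG channel *egl-2* and the Shaw channel *egl-36* were lower, at 55.7 to 129 TPM with a median of 89.9 and at 35.8 to 89.5 TPM with a median of 70.7. *kcnl-4*, of the small-conductance calcium-activated type, was at 173 to 485 TPM with a median of 395, ahead of the large-conductance channels *slo-2* at 62.2 to 131 TPM with a median of 119 and *slo-1* at 48.9 to 82.2 TPM with a median of 74.3. *sup-9*, a two-pore channel, was at 27.6 to 98.5 TPM with a median of 66.7.

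Calcium channels and the sodium leak complex had 7 members of 12. The alpha2-delta subunit *unc-36* was at 42.1 to 126 TPM with a median of 120.4, the P/Q-type channel *unc-2* at 51.3 to 92.0 TPM with a median of 57.7 and the L-type channel *egl-19* at 22.2 to 42.3 TPM with a median of 27.4. The NALCN auxiliary subunits *unc-80* and *unc-79* were at 57.1 to 81.8 TPM with a median of 64.0 and at 40.5 to 59.1 TPM with a median of 45.2, and the folding factor *nlf-1* at 32.8 to 91.5 TPM with a median of 70.3. The genes of the leak channel itself, *unc-77* (also called *nca-1*) and *nca-2*, were not members. *unc-80* and *unc-79* varied little between libraries, with SDs of 0.18 and 0.23 on the log2 scale. TRP channels were reduced to the lysosomal mucolipin *cup-5*, at 10.4 to 19.1 TPM with a median of 13.6. *osm-9* and *ocr-2*, the TRPV channels of other ciliated neurons, were at 0 to 4.95 TPM and at 0 to 3.12 TPM. The cold-responsive *trpa-1* missed the minimum through replicate 1 alone, at 5.57, 22.8, 21.1, 12.8, 19.8 and 18.9 TPM.

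Innexins, the gap junction proteins, had 8 members of 25. *che-7* was at 73.4 to 211 TPM with a median of 161 and the neuronal *unc-7* at 58.9 to 114 TPM with a median of 99.8, both lowest in replicate 1. *inx-8* and *inx-14*, which form gap junctions of the gonad, were not lowest in replicate 1. *inx-8* was at 119, 129, 47.9, 59.5, 12.4 and 57.0 TPM in replicates 1 to 6. *inx-14* was at 22.1, 29.8, 22.1, 23.2, 14.5 and 13.0 TPM, with replicate 1 near the middle of its range. Replicates 1 and 2, with the most *inx-8*, were those with the least *gcy-9*, and the sums of the germline markers were also highest in these libraries, 559.6 and 562 TPM against 249 to 318 TPM in the others. Their part in the level of *inx-8* was not tested. The chloride channels had 3 members of 34, of which *clh-5* was at 16.8 to 32.7 TPM with a median of 30.6.

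Neuropeptide genes of the 3 families had 42 members of 147, 28.6%, beside 23.3% of all protein-coding genes. The FMRFamide-like family had 16 members of 31 and the neuropeptide-like proteins 22 of 76, whereas the insulin-like peptides had 4 of 40. The *flp* genes together made up 3439.7 to 6153 TPM and the *nlp* genes 4796 to 6792 TPM. Only *flp-23* among the *flp* genes was at 0 in all libraries, and 9 further *flp* genes reached 10 TPM in some library.

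*flp-19* was the leading *flp* gene, at 1159.8, 2322, 755, 1001, 841 and 1319 TPM in replicates 1 to 6, on chromosome X and overlapping *abl-1*. It was highest in replicate 2, whereas *flp-17* was lower there than in any library but replicate 1. *flp-17*, whose peptides act on the receptor EGL-6 to inhibit egg laying, came next by mean level. *flp-34* was at 267, 656, 639.9, 683, 629 and 629 TPM, so that replicates 2 to 6 lay within a narrow band and replicate 1 below it. *flp-14* was at 91.1 to 372 TPM with a median of 228, lowest in replicate 2. *flp-8*, known from URX and other neurons, had a mean of 721 TPM that rested on replicate 1, with 3077, 22.2, 46.4, 428, 19.04 and 730.5 TPM in replicates 1 to 6 and a mean of 249 TPM without replicate 1. The lower *flp* members reached down to *flp-13* at 18.5 to 35.5 TPM with a median of 29.5.

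Among *nlp* genes, *nlp-1* led at 782, 1526, 1187, 1524, 1832 and 1461 TPM in replicates 1 to 6, lowest in replicate 1 and highest in replicate 5. *nlp-50* was at 541, 1179.7, 334, 516, 196 and 489 TPM, with replicate 2 above the others, and *nlp-47* at 134, 304, 866, 512, 427 and 540.1 TPM, with replicate 3 above the others. *nlp-13* was the steadiest of the leading 4, at 324 to 546 TPM with a median of 379 and an SD of 0.28 on the log2 scale. *pdf-1*, which encodes the pigment dispersing factor peptides, was at 34.7 to 218 TPM with a median of 112, and *snet-1*, a peptide linked to memory, at 78.9 to 659 TPM with a median of 364. The 4 insulin-like members had a median mean level of 46.8 TPM. *ins-1* was at 17.5 to 80.0 TPM with a median of 68.2 and *ins-35* at 15.0 to 159.7 TPM with a median of 41.5, the latter with as few as 2 reads in its lowest library and 0 TPM in at least 1 library of the other genotype.

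The machinery that makes and packs peptides had 13 of 14 genes as members and took 48109 to 100076 TPM in all, without *pgal-1*, which this list did not hold. *egl-3*, the proprotein convertase, was at 866 to 1901 TPM with a median of 1435, and *ida-1*, a membrane protein of dense core vesicles, at 588 to 1311 TPM with a median of 1077. *aex-5*, another convertase, was at 149 to 529 TPM with a median of 367, and *unc-31*, the CAPS protein that primes dense core vesicles, at 25.2 to 66.2 TPM with a median of 46.3. The exception was *eipr-1*, a factor of dense core vesicle sorting, which missed the minimum through replicate 1 alone, at 3.69, 28.5, 26.6, 19.7, 32.3 and 26.2 TPM.

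Of the transcription factors, *ets-5* was the most abundant of the leading genes of their families. Its family had 2 members of 8, the other being *ets-6* at 20.8 to 41.5 TPM with a median of 32.0, while *ets-7*, *ets-8* and *ets-9* were under 1 TPM in all libraries. *daf-19*, the RFX factor of the ciliary genes, was at 192 to 409.5 TPM with a median of 358. *egl-13*, a SOX factor that specifies the gas-sensing neurons BAG and URX, was at 41.8, 72.8, 113, 109, 152 and 161 TPM in replicates 1 to 6, lowest in replicate 1 and next lowest in replicate 2 like the BAG markers.

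Homeobox factors had 8 members of 99, led by *ceh-54* at 51.3 to 193 TPM with a median of 128 and *ceh-23* at 36.7 to 153 TPM with a median of 93.6. Another 31 homeobox genes reached 10 TPM in some library only. The terminal selectors of other sensory neurons were low, with *che-1* of ASE at 0 to 3.47 TPM, *ceh-36* of AWC at 0 to 1.13 TPM and *ttx-1* of AFD at 0 to 18.1 TPM, the last highest in replicate 1. Nuclear hormone receptors had 48 members of 276, led by *nhr-138* at 108 to 197 TPM with a median of 149.9 and *nhr-100* at 78.2 to 211 TPM with a median of 152.

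Of 39 bHLH factors 8 were members, and the leading ones have broad roles. *hif-1*, the hypoxia-inducible factor that accumulates at low O2, was at 287, 345, 118, 138, 226 and 397 TPM in replicates 1 to 6. *hlh-30*, the TFEB factor of autophagy and lysosomes, was at 111, 148, 54.8, 81.1, 129 and 150.2 TPM, low in replicates 3 and 4 as *hif-1* was. The proneural genes *lin-32*, *cnd-1*, *hlh-3* and *hlh-14* stayed under 1 TPM. Of 26 bZIP factors 10 were members, with *jun-1* at 128 to 279 TPM with a median of 144 and *atf-4*, of the integrated stress response, at 83.8 to 199 TPM with a median of 135. Of 15 forkhead factors *daf-16*, the FOXO factor of insulin signalling, was at 36.5 to 55.8 TPM with a median of 42.0 and *fkh-8*, a factor of ciliated neurons, at 17.4 to 41.0 TPM with a median of 28.9. The factors nearest to the minimum in the empty families were *tbx-2*, at 8.41 to 55.1 TPM, and *elt-3*, at 2.97 to 7.18 TPM.

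**Figure D4:**
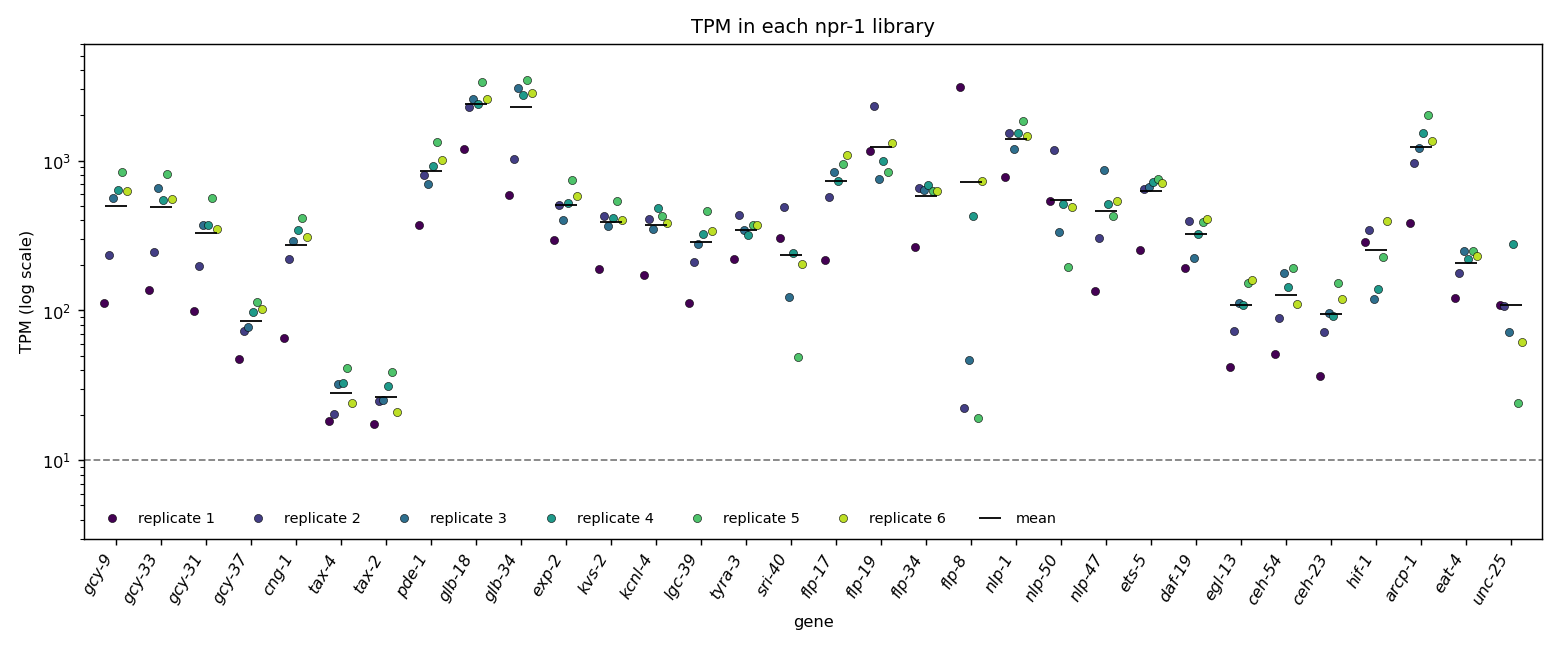
TPM on a log scale of 32 named genes in each of the 6 npr-1 libraries (coloured points) with the mean (black line), and the minimum of 10 TPM as a dashed line. Replicate 1 was the lowest library for most of the receptors, channels and transcription factors shown, such as ets-5 at 251 TPM against 648 to 759 TPM in the others, and by contrast the highest for flp-8.

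Downstream of the receptors, 5 of 22 G protein alpha subunits were members. The Gq gene *egl-30* was at 307 to 1023 TPM with a median of 809.6, the Gs gene *gsa-1* at 187 to 519 TPM with a median of 391 and the Go gene *goa-1* at 154 to 262 TPM with a median of 179. None of the 5 was lowest in replicate 1. The sensory subunit *odr-3* was under 1 TPM in all libraries, as were *gpa-4* and *gpa-8*. Of 15 regulators of G protein signalling 9 were members, with *eat-16* at 79.7 to 260.2 TPM with a median of 188 and *rgs-2* at 55.6 to 159 TPM with a median of 129.

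Phosphodiesterases had 6 members of 7. *pde-1*, the calcium and calmodulin dependent enzyme, was at 371, 800.1, 695, 923, 1341 and 1012 TPM in replicates 1 to 6, above *pde-6* at 118 to 304 TPM with a median of 209 and *pde-2* at 85.5 to 159 TPM with a median of 99.7 in each library. *pde-5* missed the minimum through replicate 1 alone, at 3.18, 14.4, 27.5, 20.6, 23.4 and 14.6 TPM. Among the effectors of cyclic nucleotides and calcium 8 of 13 were members, with the protein kinase A catalytic subunit *kin-1* at 267 to 708 TPM with a median of 451, the calcineurin subunit *tax-6* at 205 to 370.1 TPM with a median of 305, the calcium and calmodulin dependent kinase *cmk-1* at 107 to 254 TPM with a median of 208 and the cGMP-dependent kinase *egl-4* at 48.3 to 73.4 TPM with a median of 64.8. *egl-4* varied least among these, with an SD of 0.20 on the log2 scale.

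*arcp-1*, the gene that distinguishes the other genotype and encodes an ankyrin repeat protein of the BAG cilium, was abundant in the controls. It was at 385, 964, 1212, 1522, 2017 and 1343 TPM in replicates 1 to 6, lowest in replicate 1 and highest in replicate 5, and its exons on chromosome III overlap *lin-48*. Globins had 9 members of 34, and a pair of them stood far above the others. *glb-18* was at 1201, 2271, 2575, 2373, 3360.3 and 2558 TPM, and *glb-34* at 591, 1027, 3073, 2736, 3464 and 2807 TPM, with replicates 1 and 2 below the rest. Both share exon positions with other loci, *gcsh-2* and *21ur-8664*. The next globin, *glb-14*, was at 93.8 to 246 TPM with a median of 177. *glb-5*, which tunes O2 responses in URX and BAG, was not a member because of replicate 1, at 5.77, 12.5, 55.5, 36.9, 62.4 and 30.6 TPM in replicates 1 to 6. Genes of the carbonic anhydrase family, whose active enzymes interconvert CO2 and bicarbonate, had 4 members of 6. *cah-6* was at 49.8 to 85.1 TPM with a median of 70.7. *cah-3* was at 38.9 to 107 TPM with a median of 57.0 and *cah-2* at 43.5 to 83.2 TPM with a median of 64.5. Whether each product is an active enzyme was not tested. Of 60 genes for proteins with an insulin/EGF-receptor L domain *irld-15* was the single member, at 86.1 to 258 TPM with a median of 191.

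The genes of the cilium were nearly complete. Intraflagellar transport had 25 members of 29, with *osm-5*, the IFT88 subunit, at 184 to 837 TPM with a median of 571, *ifta-2* at 142 to 551 TPM with a median of 460.5 and *che-13* at 140.0 to 405 TPM with a median of 378. The dynein heavy chain *che-3* was far lower at 22.1 to 34.4 TPM with a median of 29.9. Among the 4 that were not members was *osm-3*, the homodimeric kinesin, at 1.84 to 6.81 TPM, while *klp-11* and *kap-1*, which form the heterotrimeric kinesin with *klp-20*, were members and *klp-20* was not. The BBSome and the transition zone had 22 members of 24, from *arl-3*, a small GTPase, at 370.5 to 971 TPM with a median of 759, and *bbs-5* at 241 to 571 TPM with a median of 502, down to *mks-5* at 15.1 to 26.2 TPM with a median of 22.5. Ciliary genes were lowest in replicate 1 in 45 of 47 cases, beside 51.1% of all members.

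Synaptic vesicle release had 24 members of 27. *snt-4*, a synaptotagmin, led at 1020.3 to 3439 TPM with a median of 2264, and *snb-1*, the synaptobrevin, *ric-4*, the SNAP-25 protein, and *rab-3* were at 144 to 268 TPM with a median of 219.7, at 150.1 to 224 TPM with a median of 198 and at 114 to 186 TPM with a median of 156. Of 17 genes that define a transmitter 3 were members. *eat-4*, the vesicular glutamate transporter, was at 120.2, 177, 248, 219.6, 250.5 and 231 TPM in replicates 1 to 6, lowest in replicate 1 and steady in the rest. *unc-25*, the glutamate decarboxylase of GABA neurons, was at 109, 107, 71.9, 279, 24.2 and 61.6 TPM, with replicate 4 above the others. *tbh-1*, the enzyme that makes octopamine, was at 156, 66.8, 33.3, 33.2, 13.1 and 19.6 TPM with replicate 1 above the others, and its exons overlap *H13N06.7* and *suox-1*. The other GABA markers were no members, *unc-30* at 5.69, 1.80, 2.58, 20.5, 4.66 and 4.04 TPM and *unc-47* at 0, 2.07, 1.58, 7.37, 0 and 2.06 TPM in replicates 1 to 6, both also highest in replicate 4. The acetylcholine genes *unc-17* and *cha-1* were at 3.07 to 7.24 TPM and at 2.52 to 5.19 TPM.

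Basic cell functions were well covered. Cytosolic ribosomal proteins had 79 members of 81 with a median mean level of 704 TPM, and the proteasome had 31 of 31 with a median of 79.6 TPM. The mitochondrial genome's 12 coding genes summed to 5097 to 27772 TPM, of which *COX1* was at 1539.8 to 8135 TPM with a median of 4144, lowest in replicates 1 and 5. Of 22 heat shock genes 16 were members, led by *hsp-90* at 1265 to 2279.6 TPM with a median of 2054 and *hsp-1* at 1079 to 1885 TPM with a median of 1557. The small heat shock genes *hsp-16.41* and *hsp-16.48*, the latter a symbol of a pair of near-identical loci of which the more abundant is given, have close copies, so their levels are uncertain. They were both highest in replicate 5, at 247, 244, 693, 946, 2845 and 996 TPM and at 205, 18.2, 15.8, 25.6, 1424 and 28.8 TPM in replicates 1 to 6. Of 16 tubulin genes 11 were members, with *mec-12* highest at 1589 to 3071 TPM with a median of 2618.

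Families of other tissues were present as well. Collagens of the cuticle, secreted by the hypodermis, had 73 members of 163 and made up 51505 to 154441 TPM together. Their levels rose to those of *col-140*, at 24081, 6849, 4945, 11911, 8027 and 7302 TPM, with replicate 1 above the others, and 3 of the 73 were lowest in replicate 1. Major sperm proteins had 23 members of 31 with a sum of 875 to 11692 TPM. *msp-31* was at 67.9, 146, 608, 1059, 460.0 and 339.9 TPM, lowest in replicates 1 and 2, and 19 of the 23 were lowest in replicate 1. Vitellogenins, the yolk proteins of the intestine, had 2 members of 6, *vit-2* at 23.2 to 94.5 TPM with a median of 35.4 and *vit-6* at 15.5 to 67.6 TPM with a median of 30.8. Cytochrome P450 genes had 5 members of 74 and C-type lectins 7 of 244. Collagen and sperm protein genes are near-identical copies of each other in part, so their separate levels are uncertain.

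Replicates spread by a median SD of 0.41 on the log2(TPM + 1) scale over 4690 members, with quartiles of 0.30 and 0.56 and a range of 0.06 to 3.46. In plain terms, the highest library was a median of 2.17-fold above the lowest, and 1913 members, 40.8%, stayed within 2-fold. Only 128 members, 2.73%, exceeded 10-fold. Without replicate 1, the median SD of the same members was 0.30. The minimum of 10 TPM in every library removes genes that dropped out of a library and so keeps this spread low by construction: over all 16482 genes with a mean of 1 TPM or more the median was 0.85. On counts, edgeR's biological coefficient of variation, an estimate of the relative spread beyond counting error that is shrunk towards a common trend, had a median of 0.266 with quartiles of 0.233 and 0.319.

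The spread is bounded by the rule in the low classes, where every value had to reach 10 TPM while the mean stayed close to it, so the classes are given without reading a trend from them. The median SD was 0.37 in the class from 10 to 30 TPM, 0.41 from 30 to 100, 0.45 from 100 to 300, 0.48 from 300 to 1000, and 0.43 in both classes above. The upper quartile went from 0.48 in the lowest class to 0.83 from 300 to 1000 TPM. Depth behind these classes differed more, with a median of 12 reads in the lowest library for members at 10 to 30 TPM and of 25 reads at 30 to 100 TPM, against 1867.5 reads at 3000 TPM and over.

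The spread differed from family to family. Among members with a mean of 100 TPM or more, the steadiest were *tald-1* (transaldolase), *snt-1* (synaptotagmin), *vps-20* (an ESCRT-III subunit), *atp-2* (the beta subunit of ATP synthase) and *cope-1* (a coatomer subunit). *tald-1* was at 100.1 to 119 TPM with a median of 112, *snt-1* at 117 to 137 TPM with a median of 133 and *vps-20* at 182 to 227 TPM with a median of 206, with SDs of 0.10, 0.10 and 0.11. These genes were chosen for a small SD over all 6 libraries, so a steady level in replicate 1 follows from the choice. The median SD was 0.33 over proteasome genes and 0.35 over ribosomal protein genes. It was 0.91 over the 4 BAG markers, 0.96 over collagens, 0.99 over mitochondrial genes and 1.42 over sperm proteins. Without replicate 1, a choice made after seeing the data, the median fell to 0.50 for the BAG markers, and it was 0.92 for collagens, 0.87 for mitochondrial genes, 1.02 for sperm proteins, 0.25 for proteasome genes and 0.22 for ribosomal protein genes.

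At the other extreme stood genes that were high in replicate 1. *dod-6*, a gene downstream of DAF-16, was at 13635, 41.1, 102, 41.0, 39.2 and 20.3 TPM in replicates 1 to 6, and its mean of 2313 TPM became 48.8 TPM without replicate 1. *phat-7*, *phat-8* and *phat-3*, which encode secreted ShK-domain peptides of the pharynx, followed with 17145, 4545 and 2298 TPM in replicate 1. In the other libraries they were at 61.3 to 405 TPM, 16.55 to 52.62 TPM and 11.8 to 27.4 TPM. *osm-11*, a secreted ligand of Notch signalling, was at 11241, 1648, 480.0, 1331, 1537 and 1696 TPM. The touch neuron genes *mec-17*, a tubulin acetyltransferase, and *mec-7*, a beta tubulin, were at 1264 and 1226 TPM in replicate 1 and at 14.5 to 49.5 TPM and 7.30 to 42.8 TPM in the others. Replicate 1 was thus the library with both the least BAG marker transcript and the most of several genes of other cells, among them 2550.0 TPM of touch neuron markers and 333 TPM of pharyngeal muscle markers against 58.4 to 119 TPM in the others. Sums of some other lists were lowest in replicate 1 instead. Sperm proteins were at 875 TPM there against 1736 to 11692 TPM, and ASE markers at 1.07 TPM against 2.28 to 8.55 TPM. Coelomocyte markers were at 0. The body wall muscle sum was also lowest there, at 2238 TPM against 5726 to 10587 TPM, but it was mostly *unc-54*. That gene was at 1858 TPM in replicate 1 and at 5373 to 10196 TPM in the others, and 2 of the 6 muscle members were lowest in replicate 1. The part of these cells in the values of replicate 1 was not tested.

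Over all members, 2397 (51.1%) had their lowest value in replicate 1, against 352 to 609 in each other library, and 1290 (27.5%) their highest in replicate 5. The families differed in this. BAG markers (4 of 4), cyclases (6 of 6), cGMP-gated channels (3 of 3), intraflagellar transport (24 of 25) and ribosomal proteins (72 of 79) were lowest in replicate 1, while collagens (3 of 73), G protein alpha subunits (0 of 5) and *flp* genes (4 of 16) mostly were not.

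**Figure D5:**
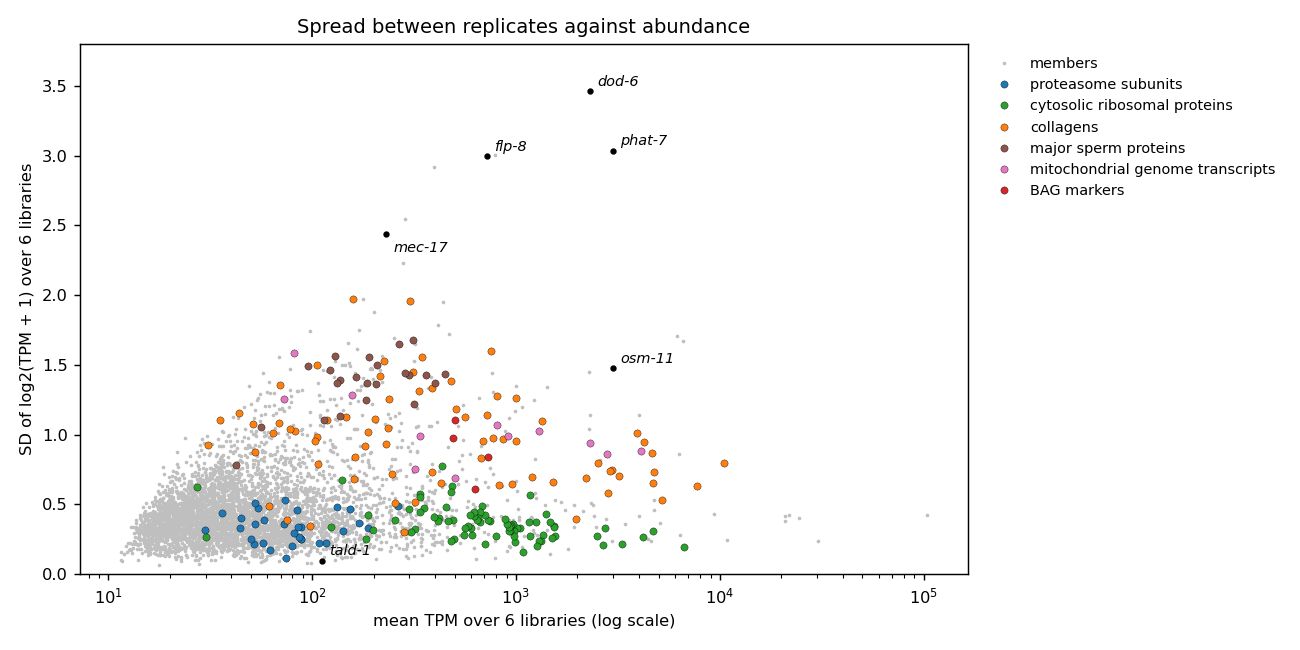
SD of log2(TPM + 1) over the 6 libraries against mean TPM on a log scale for the 4690 members, with 6 groups coloured and 6 genes named. Proteasome and ribosomal protein genes lie near medians of 0.33 and 0.35, sperm proteins and mitochondrial genes near 1.42 and 0.99, and dod-6 is highest at 3.46.

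The minimum cut through a continuous range. The members just inside it were *fbxa-3*, *F55B11.3* and *F33H1.4*, with lowest values of 10.0003, 10.0006 and 10.0027 TPM, and the genes just outside were *tag-77*, *frm-8* and *ddi-1* with 9.99981, 9.98942 and 9.98357 TPM. A further 1153 genes reached 10 TPM in exactly 5 of the 6 libraries, and the library they missed was replicate 1 for 705 and replicate 5 for 195, the pair of shallow libraries. Without replicate 1 the set held 5395 genes. Of protein-coding genes, 3180 (16.1%) were under 1 TPM in all 6 libraries.

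The libraries of *arcp-1; npr-1* animals took no part in choosing the set. In them 3965 of the 4690 members, 84.5%, also reached 10 TPM in all 6 libraries, and 4605 genes passed there in all. The share rose with abundance, from 59.0% of members at 10 to 30 TPM and 93.6% at 30 to 100 TPM to 100% of the 34 members at 3000 TPM and over. Of the 725 that did not, 461 reached the minimum in 5 of 6 libraries and 8 in none. *dod-6*, *phat-8*, *flp-8*, *phat-3* and *hsp-16.48* were the most abundant of the 725, and each owed a high mean to replicate 1 or replicate 5. All 4 BAG markers reached the minimum in every library of both genotypes. The genotypes are not compared here, since the set was chosen on the controls.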

How the data were processed

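RNA from sorted BAG neurons of 6 *npr-1* libraries was described, and 6 *arcp-1; npr-1* libraries served for a single count. The authors removed rRNA reads with Bowtie2, trimmed adapters with Trim Galore, aligned to the WS255 genome with STAR, kept alignments whose mapping quality was 20 or higher, and obtained unstranded gene counts from HTSeq. The deposited TPM values cover 46766 genes. The deposited normalized counts, a signal made by the authors by dividing whole reads by DESeq2 size factors, cover 22542 genes, and dividing each library by its smallest value gave whole reads (within 0.001) for 100% of values. The deposited table of the authors' comparison holds fold changes, test statistics, p-values and q-values, none of which were used. Its genotype means served to check the assignment of columns to genotypes (largest relative deviation 6.4e-15).

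Members had 10 TPM or more in all 6 control libraries. Spread was the SD of log2(TPM + 1), and edgeR (version 4.0.16, R 4.3.3) with TMM scaling gave the biological coefficient of variation, with DESeq2 (1.42.0) size factors as an alternative. Other steps used Python 3.11.15 with pandas 2.3.3, numpy 2.4.6 and matplotlib 3.10.9. Both measures of spread were checked on simulated data. Kinds of gene and exon overlaps came from a WBcel235 annotation, in which 31916 of 46553 genes have the positions of the deposited table, and gene symbols from a table of gene names, in which a symbol shared by several loci counts for each. Coordinates are those of the authors' table.

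The members, gene lists and tests were chosen with earlier results of these data known, and the list of mitochondrial gene names was edited after the files were seen. Named were the 20 most abundant members, up to 4 leading members of a list and genes under 1 TPM throughout, markers, the 5 steadiest and 5 most variable members of 100 TPM or more, 3 genes on either side of the minimum, genes the study names for BAG, and the 5 most abundant members under 10 TPM in a library of the other genotype. Further genes, among them *osm-11* and those that missed the minimum, were named after their values were seen. Of the listed symbols, *capr-1* and *fap-1* were not matched. The labels and the study's methods call the libraries biological replicates, without saying whether each came from a separate culture. Alternatives were other minimums, library counts, pseudocounts, scalings and leaving out each library. As no comparison between groups was made, there are no p-values.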

Additional observations from a re-analysis of the deposited data

Results flagged for a closer look

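For each gene given by its values, each family sum and each library measure, a library was singled out by its gap to the nearest other library. The gap had to exceed Dixon's critical share of the range of all 6. Chance alone passes this limit in about 1 in 20 groups of normally distributed values, if the groups were not chosen by those values. Some genes were named for a large spread or after their values were seen. That rate does not apply to them, and the flags are a description only. Replicate 1 was singled out most often. Its correlation with the mean of the other libraries was 0.848 against 0.929 to 0.966, and 2397 members had their lowest value there against 352 to 609.

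Replicate 1 was the low one for *ets-5* (251 TPM against 648 to 759 TPM in the others), *flp-34* (267 against 629 to 683 TPM), *srr-4* (33.7 against 85.0 to 105 TPM), *slo-2* (62.2 against 109 to 131 TPM) and *C30E1.9* (2985 against 5189 to 6186 TPM). Summed over a family, it was low for the receptors of amines, acetylcholine, GABA and glutamate at 449 TPM against 696 to 752 TPM, for calcium-activated and inward rectifier potassium channels at 402 TPM against 721 to 884 TPM, and for ETS factors at 300.4 TPM against 681 to 799 TPM.

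It was the high library for a further set of genes, some of them known from other cells or tissues. These were *dod-6* (13635 TPM), *phat-7* (17145 TPM), *phat-8* (4545 TPM), *phat-3* (2298 TPM), *osm-11* (11241 TPM), *col-140* (24081 TPM), *flp-8* (3077 TPM), *mec-17* (1264 TPM), *mec-7* (1226 TPM) and *tbx-2* (55.1 TPM). Low genes raised there were *gcy-36* (32.0 TPM), *gcy-32* (15.9 TPM), *ttx-1* (18.1 TPM) and *ocr-2* (3.12 TPM). The marker sums of touch neurons (2550.0 TPM), pharyngeal muscle (333 TPM) and AWC neurons (18.0 TPM) stood above the other libraries there too. Replicate 1 held 952110 reads, so that 3 reads are 3.15 CPM, and the lowest of these values rest on few reads.

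In replicate 2, *flp-19* reached 2322 TPM against 755 to 1319 TPM and *nlp-50* 1179.7 TPM against 196 to 541 TPM. In replicate 3, the piRNA locus *21ur-11286* reached 19579 TPM. In replicate 4, *unc-25* reached 279 TPM, *daf-11* 1.93 TPM, *unc-30* 20.5 TPM and *unc-47* 7.37 TPM, and the sums of the transmitter genes (604 TPM) and of the GABA markers (307 TPM) stood above the others. Replicate 5, with the fewest reads, was highest for *hsp-16.41* (2845 TPM), *hsp-16.48* (1424 TPM), *che-1* (3.47 TPM) and *osm-9* (4.95 TPM), for the summed heat shock genes (14705 TPM against 4800.2 to 6330.4 TPM) and for the summed homeobox factors (1006 TPM against 655 to 776 TPM).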

How the results depend on the processing

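The number of members, 4690 by the rule, was 2964 with a minimum of 20 TPM and 7342 when only the mean had to reach 10 TPM. With a minimum of 5 TPM it was 6188, with 5 of 6 libraries 5843, with at least 10 reads in each library 3790, with TPM rescaled over protein-coding genes 5093, and without replicates 1 and 5, a choice made after seeing the data, 5747. Leaving out each library in turn gave 4724 to 5395 members, the most without replicate 1. The count of list genes among the members, 602, was 474 to 786 under these rules and 605 to 653 with a library left out. The share of TPM, 90.9%, was 93.5% with a minimum of 5 TPM, 85.7% with 20 TPM, 93.6% with 5 of 6 libraries, 96.3% by the mean, 85.6% with 10 reads, 92.1% after rescaling, 93.8% without replicates 1 and 5, and 90.8 to 92.7% with a library left out. The median SD on the log2 scale, 0.41, was 0.85 over all genes with a mean of 1 TPM or more, 0.30 as a scaled median absolute deviation, 0.27 without replicates 1 and 5, and 0.30 to 0.43 with a library left out, the lowest without replicate 1. A pseudocount of 0.1 or 10 and the normalized counts kept it within its jackknife error of 0.10. The median biological coefficient of variation, 0.266, was 0.330 when fitted with all genes above a CPM of 1 in 3 libraries, and 0.233 to 0.287 with a library left out. Of 3965 members that also passed in the other genotype, leaving out a library there gave 3977 to 4097. Among 179 genes given by value, the median over libraries and the mean without any library each lay within 1 SD of the mean. This holds for any set of values by arithmetic, so it says nothing about how steady these genes were. Rescaling over protein-coding genes, which multiplies a library by 1.203 to 1.299, moved 44 of 172 by more than 1 SD. Replicate 1 decided the means of 14 genes by over 1.5 times, such as *phat-7* (157.8 TPM without it), *phat-8* (32.95 TPM), *phat-3* (16.8 TPM), *osm-11* (1338 TPM), *mec-17* (24.6 TPM), *mec-7* (21.3 TPM) and *tbh-1* (33.2 TPM). Replicate 3 did so for *21ur-15412* (3811 TPM without it) and *21ur-11286* (3454 TPM), replicate 5 for *hsp-16.41* (625 TPM), *hsp-16.48* (58.7 TPM) and 2 genes under 10 TPM, and replicates 2, 4 and 6 only for genes under 10 TPM. No paired analysis was possible because the result comes from no test between groups. Levels near the minimum rest on few reads in replicates 1 and 5, copies made by PCR were not told apart, and no unsorted tissue was compared, so a level is not an enrichment in BAG.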
